A study of Mus musculus with 6 samples.

Results

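Blood clotting starts when tissue factor, the membrane protein encoded by F3, meets factor VII of the plasma, and ends in thrombin and fibrin. Cells that border blood restrain it with tissue factor pathway inhibitor (Tfpi) and with thrombomodulin and the endothelial protein C receptor (Thbd and Procr), which turn thrombin toward activating protein C. Fibrin is dissolved by plasmin, which urokinase and tissue-type plasminogen activator (Plau and Plat) release from plasminogen, urokinase at its receptor Plaur. The 9 genes described here are these 7 with F2r, the thrombin receptor PAR1, and Serpine2, the inhibitor protease nexin-1 of thrombin and plasminogen activators. They were chosen from the coagulation and fibrinolysis rows of the count table with the circulating against muscle values already known, so that contrast is described for them and not tested, and 9 of 9 were found among 33276 genes in all.

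RNA-seq read counts came from fibroadipogenic progenitors (FAPs), mesenchymal cells of the muscle interstitium that can form fibroblasts and adipocytes, taken from peripheral blood (circulating, 3 libraries) or muscle (3 libraries) of mice. All 6 libraries carry the label MCAO, middle cerebral artery occlusion, a stroke model, in the field for strain. Mouse strain, age, time after occlusion, sorting markers and pooling of animals are not given in the sources used here, and mice without occlusion were not analysed here. Whether the libraries of a group came from separate mice is not stated, so their spread may be technical.

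Totals ran from 5522193 to 13813329 counts in circulating and from 17532558 to 23424039 in muscle libraries, of which 18S ribosomal RNA counted under both of its symbols, took 42.9% to 60.1% and 27.8% to 32.3%. A level is given as counts per 1000000 of the TMM-scaled library (CPM), where TMM is a scaling that trims extreme genes. Summed FAP markers (8 of 8 with reads in both groups) stood at 9407 to 14898 CPM in circulating and 23906 to 30227 CPM in muscle libraries. Summed monocyte and macrophage markers (10 of 10 with reads) stood at 53.5 to 160.8 against 19.9 to 30.2 CPM, neutrophil markers (10 of 10) at 18.6 to 121.8 against 8.36 to 12.6 CPM, and mesothelial markers (6 of 6) at 7.80 to 10.5 against 2.79 to 4.21 CPM. Single mesothelial markers had only 0 to 34 reads in a library. Single genes weighed on the leukocyte sums. C1qa had 59.0 CPM in circulating replicate 2, S100a9 69.8 in circulating replicate 1, and S100a8 and Camp 61.4 and 47.7 in circulating replicate 3. Endothelial markers (10 of 10) stood at 70.7 to 119.2 against 112.9 to 151.8 CPM and platelet markers (12 of 12) at 37.0 to 49.4 against 36.3 to 42.5 CPM, both with overlap. Single genes weighed on these 2 sums too. Tek had 90.0 CPM in circulating replicate 1 and 86.4 in muscle replicate 1. Of the platelet markers, Itga2b had 36.6 CPM in circulating replicate 3 and Pf4 23.3 in circulating replicate 1. Pericyte and smooth muscle markers (6 of 6) stood at 49.9 to 64.0 against 88.1 to 150.5 CPM, lower in circulating libraries without overlap. Of that list Rgs5 and Cspg4 were lower without overlap, while Kcnj8, Abcc9, Acta2 and Myh11 overlapped. No marker of these lists was at 0 in all libraries of a group. Monocytes can express F3, Thbd and Plaur, and endothelial cells Thbd, Procr, Tfpi and Plat. The part of these cells, or of pericytes and smooth muscle cells, in the values below was not tested. In bulk libraries fewer cells with a transcript and less of it per cell cannot be told apart.

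Stray reads set a floor under the weaker genes. It was the median number of reads per kilobase of exon over 379 genes of vomeronasal, taste and trace amine receptors, used because other tissues do not normally transcribe them. This floor was 0.478 ± 0.0524 CPM per kilobase (SD, n = 3) in circulating and 0.256 ± 0.0350 in muscle libraries, 1.87 times higher in the former and without overlap.

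Sequence upstream of the start was available for 6 of the 9 genes (RefSeq, GRCm38.p6, a build other than the GRCm39 of the counts). The 4 windows below are shown because each holds the AP-1 motif TGANTCA, the binding motif of Fos and Jun dimers and the same motif on both strands. Capitals mark TGANTCA and, in F3, also GGAGTTTCC, the form of the NF-kappaB motif in this promoter. Each runs from base -250 before the RefSeq start of transcription up to the first annotated exon base, 5′ to 3′ on the strand of the gene.
F3, chr3:121723287-121723536, plus strand: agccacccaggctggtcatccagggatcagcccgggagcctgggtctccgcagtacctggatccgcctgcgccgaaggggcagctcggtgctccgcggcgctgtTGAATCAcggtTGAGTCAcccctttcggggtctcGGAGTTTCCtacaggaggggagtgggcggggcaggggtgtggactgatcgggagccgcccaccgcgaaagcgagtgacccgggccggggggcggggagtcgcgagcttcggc
F2r, chr13:95618488-95618716, minus strand: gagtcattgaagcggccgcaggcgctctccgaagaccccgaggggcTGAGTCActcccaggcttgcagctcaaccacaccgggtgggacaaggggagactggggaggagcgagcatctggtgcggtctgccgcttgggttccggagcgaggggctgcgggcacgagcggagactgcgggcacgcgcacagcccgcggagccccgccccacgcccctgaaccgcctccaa
Plaur, chr7:24462233-24462482, plus strand: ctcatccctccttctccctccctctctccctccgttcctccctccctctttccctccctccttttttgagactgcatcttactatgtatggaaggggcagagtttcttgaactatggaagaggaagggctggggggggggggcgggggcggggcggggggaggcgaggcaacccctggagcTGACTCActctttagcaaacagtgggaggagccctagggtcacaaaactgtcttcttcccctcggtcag
Procr, chr2:155750967-155751116, plus strand: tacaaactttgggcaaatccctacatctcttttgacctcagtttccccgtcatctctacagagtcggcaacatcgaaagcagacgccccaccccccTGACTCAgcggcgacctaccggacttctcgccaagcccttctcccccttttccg

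F3 held TGANTCA at -146 to -140 and again at -135 to -129, followed by GGAGTTTCC at -112 to -104. F2r held TGANTCA at -204 to -198, Plaur at -69 to -63 and Procr at -154 to -148. The motif was found in the 250 bases upstream of 6.75% of 32851 promoters of the table, and GGAGTTTCC, searched on both strands, in 0.262%. The letters TGANTCA are not in the windows of Serpine2 or in either of those of Tfpi. The motifs were picked after the sequences had been seen, and a match is a description of letters and no evidence of binding. The genes with the motif had unlike values, from F3, the lowest in circulating relative to muscle libraries, to Procr, whose groups overlapped.

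F3, the initiator, differed most between the groups. Its reads came to 185.0, 135.2 and 175.8 CPM in muscle replicates 1, 2 and 3 and to 11.97, 10.9 and 23.7 CPM in circulating replicates 1, 2 and 3. Each circulating library lay far below each muscle library, and circulating replicate 3 was the highest of its group. The means were 165.3 ± 26.5 and 15.5 ± 7.11 CPM (SD, n = 3), 10.6 times lower in circulating FAPs, a log2 fold change of -3.41 ± 0.52 (SE). In rank F3 went from the 96.3 to 96.6 percentile of the 20248 tested genes in muscle to the 73.1 to 84.0 percentile in circulating libraries. Circulating libraries still had 8.16 to 22.1 times the reads expected from the floor, against 188.1 to 321.1 times in muscle. The circulating values rest on few reads, with 164, 82 and 216 in replicates 1, 2 and 3.

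Tfpi, which inhibits tissue factor bound to factor VII, was weak in both groups. It stood at 4.18, 15.0 and 25.7 CPM in muscle replicates 1, 2 and 3 and at 7.005, 9.71 and 8.34 CPM in circulating replicates 1, 2 and 3. The circulating libraries lay close together and inside the muscle range. The log2 fold change of -0.84 ± 0.75 became -0.25 without muscle replicate 3 and -1.34 without muscle replicate 1. Tfpi reads in circulating libraries were 2.68 to 3.60 times the floor and those of muscle replicate 1 were 2.88 times it. Muscle replicates 2 and 3 stood higher, at 9.64 and 21.7 times the floor.

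Of the protein C pathway, the receptor genes Procr and Thbd overlapped between the groups. Procr, the receptor that presents protein C to thrombin and thrombomodulin, stood at 478.1, 438.7 and 426.3 CPM in muscle and at 541.7, 517.6 and 358.4 CPM in circulating replicates 1, 2 and 3. The groups overlapped, with means of 447.7 ± 27.1 and 472.6 ± 99.6 CPM and a log2 fold change of 0.08 ± 0.31. Its sign depended on the setting, with -0.03 under RLE size factors and 0.79 when the scaling used abundant genes alone (at least 20 CPM). In every library it ranked between the 98.6 and 99.5 percentile of tested genes.

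Thbd, thrombomodulin, stood at 202.2, 188.5 and 284.5 CPM in muscle and at 208.8, 103.7 and 147.7 CPM in circulating replicates 1, 2 and 3. Circulating replicate 1 lay inside the muscle range and the other two circulating libraries below it. The log2 fold change was -0.55 ± 0.40, which moved to -0.91 when circulating replicate 1 was left out and to 0.13 under the abundant-gene scaling.

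F2r, through which thrombin signals to cells, stood at 17.6, 18.7 and 19.5 CPM in muscle and at 3.06, 8.78 and 2.85 CPM in circulating replicates 1, 2 and 3. The muscle libraries were almost equal, with a coefficient of variation of 5.09%, and all circulating libraries lay below them. The log2 fold change was -1.93 ± 0.70, and -2.74 without circulating replicate 2, the highest of its group. Reads of circulating replicates 1 and 3 were 1.92 and 2.02 times the floor, against 19.7 to 27.0 times in muscle.

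Serpine2, the protease inhibitor, stood at 1029, 730.8 and 813.5 CPM in muscle replicates 1, 2 and 3, against 618.2, 488.5 and 497.9 CPM in circulating replicates 1, 2 and 3. The groups did not overlap, and the log2 fold change was -0.68 ± 0.29. With scaling on abundant genes it was 0.03.

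**Figure D1:**
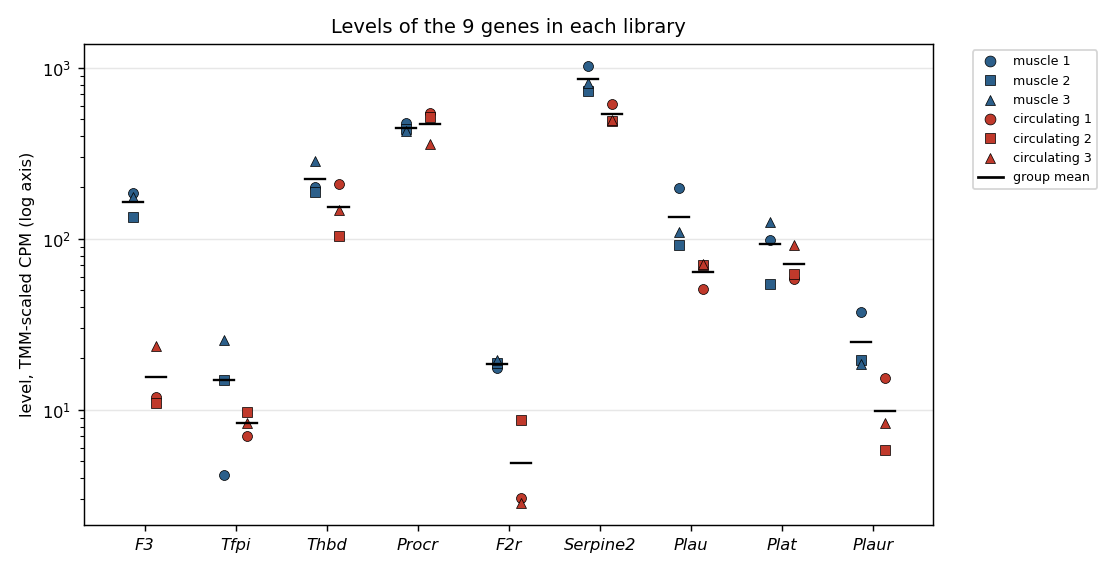
Levels of the 9 genes in TMM-scaled CPM on a log axis, with 1 point per library, blue for muscle, red for circulating, the shape for the replicate and a bar for the group mean. F3 shows the widest gap, from 135.2 CPM in the lowest muscle library to 23.7 CPM in the highest circulating library, while Procr, Thbd, Tfpi and Plat overlap between the groups.

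Of the plasminogen activators, Plau stood lower in circulating FAPs and Plat overlapped. Plau, urokinase, stood at 199.9, 92.8 and 110.1 CPM in muscle and at 50.9, 70.0 and 71.6 CPM in circulating replicates 1, 2 and 3. The groups did not overlap, and muscle replicate 1 was the highest of the 6 libraries. The log2 fold change of -1.07 ± 0.47 became -0.72 without muscle replicate 1. With scaling on abundant genes it was -0.30.

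Plat, tissue-type plasminogen activator, stood at 98.7, 54.5 and 126.4 CPM in muscle and at 58.3, 62.3 and 92.8 CPM in circulating replicates 1, 2 and 3. The lowest library of the 6 was muscle replicate 2. The log2 fold change was -0.39 ± 0.49, and ran from -0.74 without circulating replicate 3 to -0.17 without muscle replicate 3. The abundant-gene scaling gave 0.37.

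Plaur, the receptor that holds urokinase at the cell surface, stood at 37.2, 19.6 and 18.6 CPM in muscle and at 15.3, 5.86 and 8.34 CPM in circulating replicates 1, 2 and 3. All circulating libraries lay below all muscle libraries, with replicate 1 the highest in each group. The log2 fold change was -1.35 ± 0.68, and -0.68 with scaling on abundant genes.

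As a group, 8 of the 9 genes had a negative log2 fold change, and 5 (F3, F2r, Serpine2, Plau and Plaur) had every circulating library below every muscle library. Over all 20248 tested genes 45.5% had a negative value and 11.4% lay lower without overlap. Among the 4736 genes of at least 20 CPM these shares were 78.3% and 28.8%. The median over the 9 genes was -0.84, beside 0.15 over all tested genes and -0.65 over those of at least 20 CPM. Tfpi, F2r and Plaur fall outside the latter set, with means of 11.7, 11.8 and 17.5 CPM over all libraries. In edgeR 1 of the 9, F3, was past the adjusted threshold of 0.05 as lower and 0 as higher, where 0.104% of tested genes were lower and 0.00494% higher. DESeq2 had F3 and F2r as lower, where 10.3% of its tested genes were. The genes were chosen on this contrast, and nothing is read from these counts. The edgeR count of 1 became 0 under upper quartile and abundant-gene scaling, and when any library but circulating replicate 1 was left out. All 9 genes passed the filter on low counts.

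**Figure D2:**
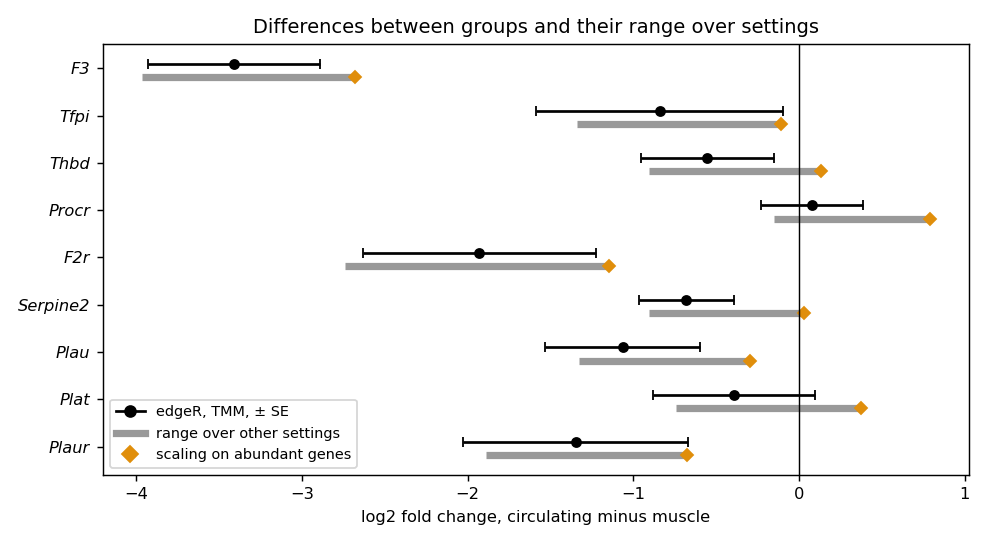
Log2 fold changes of the 9 genes, circulating minus muscle. Black points with bars are the edgeR values ± SE under TMM scaling, grey bars the range over the other settings and left-out libraries, and orange diamonds the value with scaling on abundant genes. F3 stays between -3.97 and -2.68, whereas Thbd, Procr, Serpine2 and Plat have ranges on both sides of 0.

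These values depend on the scaling, and the abundant-gene scaling put the median over all tested genes at 0.85 instead of 0.15. Ratios of reads between genes of the same library do not depend on scaling and were therefore set side by side. F3 reads per Tfpi read were 44.2, 9.03 and 6.84 in muscle and 1.71, 1.12 and 2.84 in circulating replicates 1, 2 and 3. The ratio of F3 to Tfpi reads thus differed without overlap, with muscle replicate 1 set apart by its few Tfpi reads. Tfpi itself overlapped between the groups. Its reads were only 2.68 to 3.60 times the floor in circulating libraries and 2.88 times in muscle replicate 1, so stray reads may hold a part of this ratio. F3 reads per Procr read were 0.387, 0.308 and 0.412 in muscle against 0.0221, 0.0211 and 0.0662 in circulating replicates 1, 2 and 3. Per Thbd read they were 0.915, 0.717 and 0.618 against 0.0573, 0.105 and 0.161. By each of these measures F3 was lower relative to the anticoagulant genes in all circulating libraries.

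The 3 ratios computed among Plau, Plat, Plaur and Serpine2 overlapped between the groups. Plau reads per Plat read were 2.03, 1.70 and 0.871 in muscle and 0.872, 1.12 and 0.772 in circulating replicates 1, 2 and 3, with overlap. Plau reads per Plaur read were 5.38, 4.73 and 5.91 in muscle and 3.32, 11.9 and 8.58 in circulating replicates 1, 2 and 3, also with overlap. Serpine2 reads per Plau read were 5.15, 7.88 and 7.39 in muscle and 12.2, 6.98 and 6.95 in circulating replicates 1, 2 and 3. Set against Procr the inhibitor differed. Serpine2 reads per Procr read were 2.15, 1.67 and 1.91 in muscle against 1.14, 0.944 and 1.39 in circulating replicates 1, 2 and 3, without overlap. Procr reads per Thbd read were 2.36, 2.33 and 1.498 in muscle and 2.595, 4.99 and 2.43 in circulating replicates 1, 2 and 3, higher in each circulating library. These ratios were picked after the values were seen and were not tested.

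**Figure D3:**
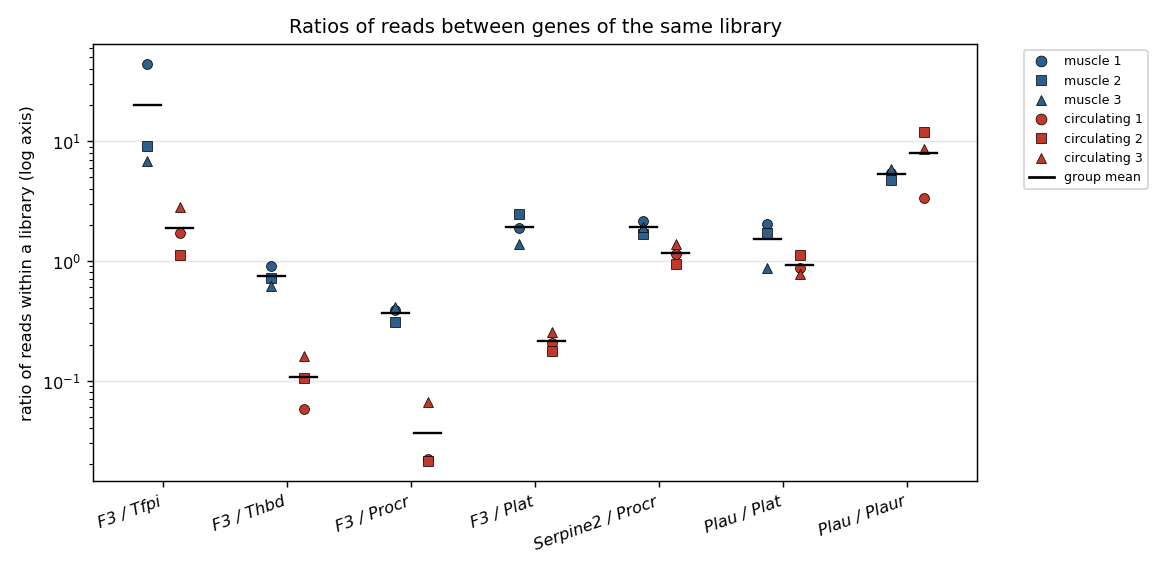
Ratios of reads between pairs of genes within a library, on a log axis, with 1 point per library, blue for muscle, red for circulating, the shape for the replicate and a bar for the group mean. The F3 ratios separate the groups, as in F3 per Plat with 1.39 to 2.48 in muscle and 0.175 to 0.256 in circulating libraries, while Plau per Plat and Plau per Plaur overlap.

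Levels of different genes were compared per kilobase of exon. In muscle the order of the mean CPM per kilobase was Procr (220.4 ± 13.3, SD, n = 3), Serpine2 (103.5 ± 18.6), F3 (65.4 ± 10.5), Thbd (60.5 ± 13.9), Plau (56.7 ± 24.3), Plat (14.9 ± 5.81), Plaur (9.60 ± 3.99), F2r (5.58 ± 0.284) and Tfpi (2.74 ± 1.97). The neighbours F3 and Thbd, Thbd and Plau, and Plat and Plaur overlapped between libraries. In circulating FAPs Procr (232.7 ± 49.0), Serpine2 (64.5 ± 8.73), Thbd (41.2 ± 14.2), Plau (27.1 ± 4.87) and Plat (11.4 ± 3.02) came before F3 (6.15 ± 2.81), followed by Plaur (3.76 ± 1.88), Tfpi (1.53 ± 0.248) and F2r (1.47 ± 1.01). There Thbd overlapped with Plau, Plat with F3, F3 with Plaur, and Tfpi with F2r. F3 was thus the third of the 9 in muscle and the sixth in circulating FAPs, and the first 2 places were the same.

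**Figure D4:**
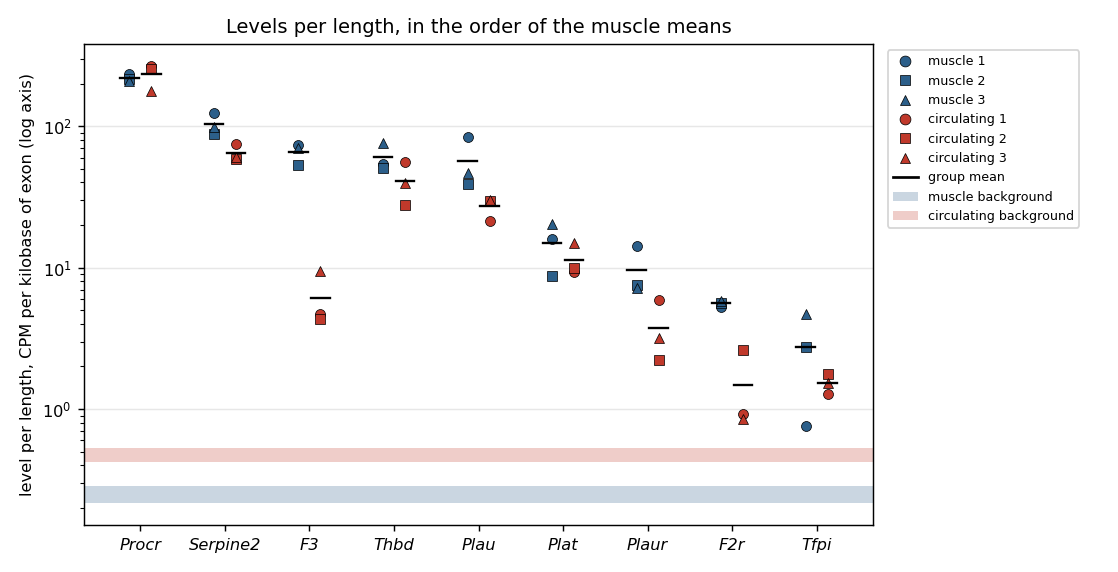
Levels per kilobase of exon in TMM-scaled CPM on a log axis, in the order of the muscle means, with 1 point per library and a bar for the group mean. Shaded bands give the range of the floor of stray reads, 0.424 to 0.529 CPM per kilobase in circulating (red) and 0.217 to 0.284 in muscle libraries (blue). The points nearest to the floor of their group are F2r in circulating replicates 1 and 3, at 1.92 and 2.02 times it.

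The profile of F3 over the 6 libraries was compared with that of 7093 named genes of at least 10 CPM by Pearson correlation of log2 CPM. The closest were Nmrk1, a nicotinamide riboside kinase (r = 0.996), the collagen chains Col1a1 (0.996) and Col6a3 (0.996), the kinase Taok1 (0.996) and Fgl2 (0.995), a membrane protein that can cleave prothrombin. For each of these genes the libraries fall into the 2 groups, and the values are a description only. Of the other 8 genes Serpine2 (0.867), Plau (0.840) and F2r (0.828) came closest to F3, and Procr was farthest (-0.313).

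The other genes of the pathway were 44 clotting factors, anticoagulants, fibrinolytic proteins, binding proteins and receptors, of which 41 could be tested. In edgeR 0 of 41 passed the adjusted threshold in either direction. At an unadjusted p under 0.05 there were 4 lower and 9 higher, where 9.64% and 9.71% of all tested genes were. DESeq2, which gave an adjusted p for 20 of them, had 3 lower (Fgl2, Pros1 and Gas6) and 0 higher, where 10.3% and 1.15% of its genes were. By group, the log2 fold change was negative in 1 of 16 tested genes of initiation and fibrin formation (median 0.90), 4 of 10 anticoagulants (0.57), 2 of 7 genes of fibrinolysis and its inhibitors (1.25), 5 of 6 binding proteins (-0.38) and 0 of 2 receptors (0.55). The anticoagulant group counts Gas6, which is described below as a ligand of TAM receptors and not as an anticoagulant. Over all tested genes 45.5% were negative, and the median was 0.15. Under 5 times the floor in every library were 17 of 18 initiation genes, 6 of 10 anticoagulants, 6 of 7 fibrinolysis genes and 2 of 3 receptors. The floor itself was higher in circulating libraries by a log2 of 0.90, so the positive medians are not read as higher expression there.

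Gas6, a vitamin K-dependent ligand of TAM receptors related to protein S, stood at 178.6 ± 45.8 CPM in muscle and 41.5 ± 2.98 CPM in circulating FAPs (SD, n = 3). Its log2 fold change was -2.10 ± 0.43 (edgeR, adjusted p = 0.0909), and every circulating library lay below every muscle library. Pros1, protein S, the cofactor of activated protein C and of Tfpi, stood at 290.0, 161.2 and 145.2 CPM in muscle and 113.7, 35.8 and 36.6 CPM in circulating replicates 1, 2 and 3 (-1.68 ± 0.56, edgeR, adjusted p = 0.188). Without circulating replicate 1 the value for Pros1 was -2.52 (edgeR, adjusted p = 0.0755, with 0.0755 to 0.351 as each library was left out). Fgl2 stood at 601.8 ± 65.9 and 269.4 ± 52.0 CPM (-1.16 ± 0.31, edgeR, adjusted p = 0.151). These 3 genes and S100a10 made up the 4 of 41 that were lower without overlap, where 11.4% of all tested genes were.

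The 3 most abundant genes of the plasminogen and activator binding group were S100a10, Anxa2 and Clec3b. S100a10, which with annexin A2 forms a surface receptor for plasminogen, stood at 2094 ± 217.2 CPM in muscle and 1317 ± 365.6 CPM in circulating FAPs (-0.67 ± 0.27, edgeR, adjusted p = 0.220). Anxa2 itself stood at 632.8 ± 102.7 and 378.9 ± 210.3 CPM (-0.74 ± 0.46, edgeR, adjusted p = 0.378), and Clec3b, tetranectin, at 415.1 ± 100.8 and 342.4 ± 39.7 CPM (-0.28 ± 0.32, edgeR, adjusted p = 0.632). Anxa5, which covers phosphatidylserine, stood at 534.5 ± 137.0 and 238.5 ± 201.0 CPM (-1.16 ± 0.55, edgeR, adjusted p = 0.272). Without circulating replicate 1 the log2 fold change of Anxa5 was -2.18 (edgeR, adjusted p = 0.0668, with 0.0668 to 0.439 as each library was left out). Vtn, vitronectin, an adhesive protein of plasma and matrix, stood at 47.7 ± 5.33 and 36.0 ± 25.1 CPM (-0.41 ± 0.63, edgeR, adjusted p = 0.724). The value for Vtn was -1.20 without circulating replicate 3 and -0.086 without circulating replicate 1. Under the abundant-gene scaling S100a10, Clec3b and Vtn had the opposite sign, with 0.025, 0.46 and 0.33.

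Of the 44 genes 31 had under 5 times the reads expected from stray reads in every library, among them F2, F7, F10, Plg, Fga, Fgb, Fgg, Proc and Serpinc1, which the liver makes for the plasma. F7, the partner of tissue factor, had 2 to 7 reads in a library. The 3 other receptors of the thrombin receptor family were low too. F2rl1 had 14 to 69 reads and F2rl2 6 to 34, both under 5 times the floor, while F2rl3 had 104 reads in muscle replicate 1 and 0 to 6 elsewhere. F2r was the only one of the 4 above 5 times the floor in more than 1 library, and that in muscle. Vwf, von Willebrand factor, stood at 4.19 ± 1.12 and 9.14 ± 1.47 CPM, F13a1 at 2.84 ± 1.64 and 6.50 ± 0.973 CPM and Serpini1, neuroserpin, at 3.31 ± 1.59 and 7.83 ± 3.84 CPM in muscle and circulating FAPs, with adjusted p = 0.307, 0.316 and 0.306 in edgeR. Plg, plasminogen, stood at 1.21 ± 0.341 and 4.04 ± 1.95 CPM (SD, n = 3; edgeR, adjusted p = 0.180).

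In CPM, 14 of the 41 genes, these 4 among them, were higher in each circulating library than in any muscle library, where 16.2% of all tested genes were. Their highest reads in any library were 0.993 to 3.95 times the floor. Set over the floor of each library, 0 of the 14 were higher without overlap, 13 overlapped and 1 was lower. The floor was higher in every circulating library, so this scale lowers circulating relative to muscle values for every gene. The share of all tested genes on this scale was not computed, and nothing particular to these genes is read from the counts. The 4 genes lower without overlap in CPM reached 266.6 to 7768 times the floor. For them the scale could only widen the gap, so it adds nothing to the CPM values.

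**Figure D5:**
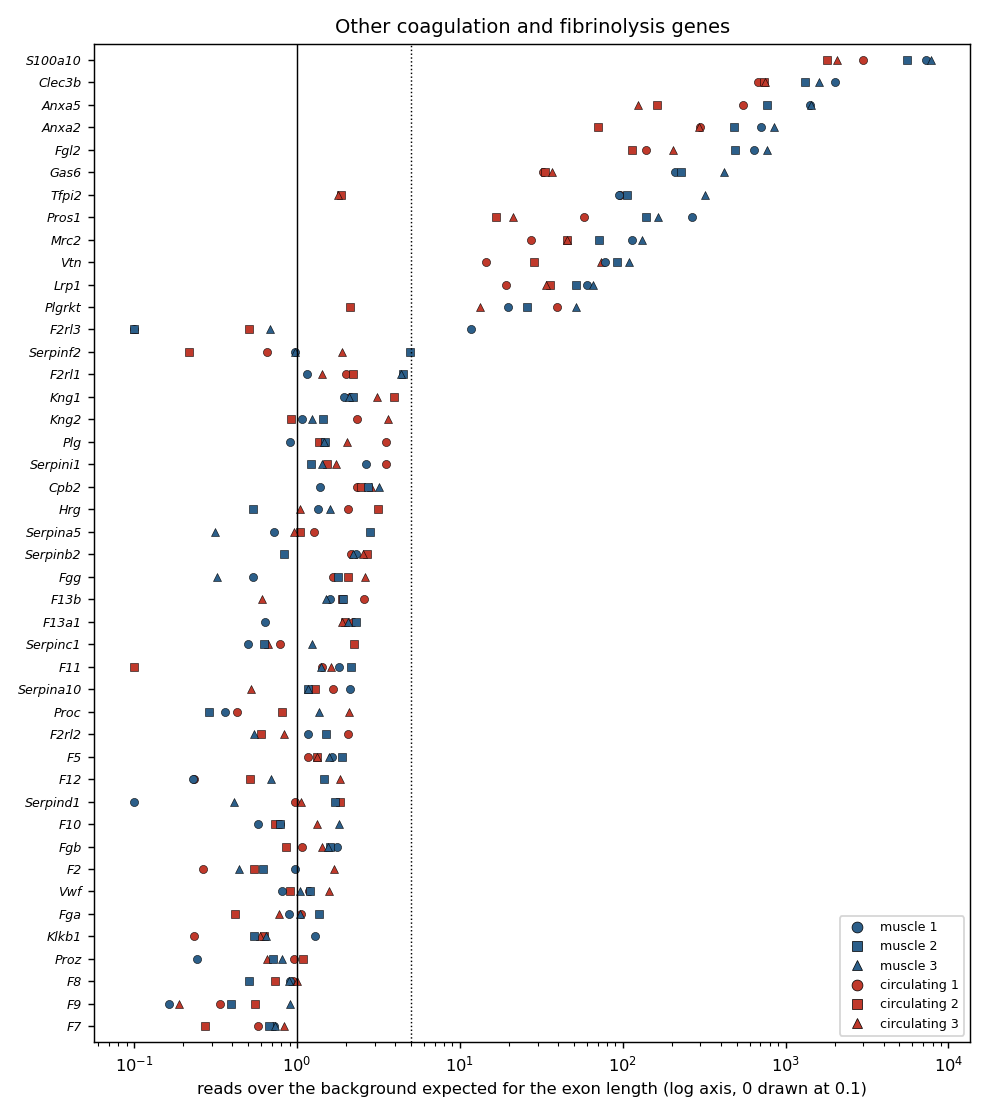
Reads of the 44 other pathway genes over the reads expected from the floor for their exon length, on a log axis, with 1 point per library, blue for muscle and red for circulating, the shape for the replicate and lines at 1 (solid) and 5 (dotted). Most clotting factors lie around the solid line in both groups, and the genes above 100 include S100a10, Clec3b, Fgl2 and Gas6 with their muscle points to the right. The higher floor of circulating libraries moves their points to the left, and in CPM Clec3b overlapped between the groups.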

How the data were processed

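RNA-seq counts of 3 circulating and 3 muscle FAP libraries were used, grouped by their titles. The authors deposited raw counts of reads per gene symbol. The submitters' processing notes name STAR, featureCounts, Trim Galore and the build GRCm39. Versions, annotation and strand setting are not given in the sources used here. Per the labels' protocols, libraries were made with a TruePrep DNA kit, which fragments with a transposase.

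In R 4.3.3 edgeR 4.0.16 was run as a quasi-likelihood F test on all genes with TMM scaling, a robust fit and filterByExpr, which left 20248 of 33276 genes, with Benjamini-Hochberg adjustment over all of them and a threshold of 0.05. The SE is the log2 fold change divided by the square root of F. The edgeR fit alone was run on simulated counts, with changes planted in genes of at least 20 CPM. The other steps were not simulated, and nothing is read from that run here. Exon lengths are unions of exons in GENCODE M21 (GRCm38), matched by symbol for 91.4% of genes. No exon base of the 9 genes is shared with another annotated gene. Of 410 silent receptor genes 379 had a length. Scaling on abundant genes took TMM factors from genes of at least 20 CPM.

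Libraries of a group differed by a chi-square of 64.2 to 99.8 per degree of freedom, beyond sampling noise. Depth limits Tfpi, Plaur and F2r, with 26 to 622 reads in a library, and F3 in circulating libraries, with 82 to 216 reads. The 18S reads stand under 2 symbols with equal counts and enter the totals under both.

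The 9 genes and the lists were chosen with earlier results of these data known. One gene of the pathway list is not reported here and stands in none of its counts. Besides the 9 genes, named genes are the 3 most abundant in each of 5 groups of the pathway list, any past the threshold, and the 5 closest to F3 in profile. Plasma factors, Plgrkt and Tfpi2 were named after their values were seen. Satellite cell and red cell markers were also summed. They came to 15.4 to 59.2 and 129.6 to 300.1 CPM in circulating libraries. In muscle libraries they came to 13.3 to 21.3 and 70.5 to 371.8 CPM. Alternatives were other scalings, totals without 18S, no filter, DESeq2 1.42.0, the replicate number as a block, each library left out, and the floor of stray reads subtracted.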

Additional observations from a re-analysis of the deposited data

How the results depend on the processing

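The pathway count of 0 lower genes became 1 without a filter (Gas6) and 3 with DESeq2, and ran from 0 to 1 over the libraries left out, the 1 being Tfpi2 without circulating replicate 1, a gene named after its values were seen and near the floor in the circulating libraries that remain. The count of 0 higher genes held under all 15 alternatives. The median log2 fold change of the 9 genes, -0.84, moved to -0.11 with upper quartile scaling and -0.11 with scaling on abundant genes, where the median of all genes was 0.83 and 0.85. Signs turned with upper quartile scaling for Vtn (0.30) and Clec3b (0.41), and with scaling on abundant genes for Vtn (0.33), Clec3b (0.46) and S100a10 (0.025). F2rl1 (0.10) turned to -0.12 without a filter and -0.066 with DESeq2, and ran from -0.35 to 0.47 over the libraries left out. F3, Tfpi, F2r, Plau and Plaur were lower in circulating FAPs under all 16 alternatives. With the replicate number as a block the median of the 9 genes was -0.68, 0 of the 9 and 0 pathway genes passed, against 1 and 0 without it. Same-numbered libraries correlated at 0.00586, 0.0436 and 0.00560 in their deviations from the group means. Circulating replicate 1 was closest to muscle replicate 3, and circulating replicates 2 and 3 to muscle replicate 2. These values give no sign of pairing by number. They cannot exclude it, since libraries of the same mouse but different sources need not deviate alike. Low totals limit the circulating values of F3, F2r, Tfpi and Plaur.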

Other observations

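A pathway gene, Tfpi2, was carried by 1 circulating library. Tfpi2, a matrix-bound relative of Tfpi that inhibits plasmin, had 1099 reads in circulating replicate 1 and 13 and 12 reads in circulating replicates 2 and 3. In CPM this was 80.2, 1.73 and 1.32, against 44.0, 52.9 and 120.7 in muscle replicates 1, 2 and 3. Circulating replicate 1 thus lay inside the muscle range and the other two at 1.87 and 1.78 times the floor of stray reads. Over all 6 libraries the log2 fold change was -1.38 ± 1.26 (edgeR, adjusted p = 0.539).

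Plgrkt, a plasminogen receptor, stood at 71.6, 4.26 and 21.3 CPM in circulating replicates 1, 2 and 3 and at 20.1, 27.9 and 42.6 CPM in muscle replicates 1, 2 and 3. Anxa5 stood at 468.0, 153.6 and 93.9 CPM in circulating replicates, and Pros1 was likewise highest in replicate 1. Among genes of at least 10 CPM, 3.98% of 7236 had at least 5 times as much in circulating replicate 1 as in the next circulating library, compared with 1.82% for replicate 2 and 2.39% for replicate 3. Of the 12 pathway genes at that level 1 did, Tfpi2, and of the 9 genes of the report 0 did.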
